A study of Homo sapiens with 3 samples.

Results

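The 10 genes described here encode the cell adhesion proteins and transcription regulators by which an epithelial cell is usually told from a mesenchymal one. They were chosen by name, as the rows of the deposited files whose symbol was CDH1, CDH2, EPCAM, ZEB1, ZEB2, SNAI1, SNAI2, TWIST1, GRHL2 or ESRP1, and all 10 were found among 25270 gene symbols. Total RNA was sequenced from HepG2, a human hepatocellular carcinoma cell line, in 3 conditions with 1 library each. These were untreated parental HepG2 cells, HepG2/metR cells, which the study derived from HepG2 by keeping the survivors of months of metformin, an inhibitor of mitochondrial complex I, and HepG2/metR cells exposed for 24 h to 40 mM oxamate, which blocks lactate dehydrogenase. The HepG2/metR cells were made as a model of high lactate production and motility, and the design asks which transcripts differ in them and which of these differences move when oxamate lowers lactate. With 1 library per condition no difference below has a replicate check, no test was possible, and no p-value is given.

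Epithelial cells hold together through E-cadherin, the product of CDH1, whose tail is linked to actin by catenins. In the epithelial-mesenchymal transition (EMT), repressors of the SNAI and ZEB families bind E-box sequences near CDH1 and other epithelial genes, TWIST1 acts beside them, and cells often replace E-cadherin with N-cadherin, the product of CDH2. GRHL2 and the splicing factor ESRP1 act on the epithelial side, and the microRNAs of the miR-200 family hold ZEB mRNAs down. In normal liver, hepatocytes carry E-cadherin as well as N-cadherin.

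The values are FPKM, fragments scaled to transcript length and library size, and differences are given on the deposited log2(FPKM + 1) scale, which compresses differences of low genes. Where 3 values are given in a row, they stand in the order parental, HepG2/metR and oxamate-treated. A gene was kept when its mean over the 3 libraries was at least 1 FPKM, which held for 12210 symbols and for 7 of the 10 genes (SNAI1, GRHL2 and ESRP1 fell short). The deposited values summed to between 473773 and 562382 FPKM per library, between 35.0% and 36.2% of symbols were listed at 0, and from the smallest values the HepG2/metR and oxamate-treated libraries were 1.21 and 1.23 times as deep as the parental one. The HepG2/metR libraries stood apart from their tissue label. All 10 hepatocyte markers examined reached 1 FPKM in parental HepG2 cells but only 2 of 10 did in either HepG2/metR library, and the markers summed to 28073, 13.7 and 10.6 FPKM. TTR was listed at 0 in both HepG2/metR libraries. These markers moved with the values below, and their part in them, like the origin of the culture, was not tested. Of 6 fibroblast or stroma markers 2 reached 1 FPKM in each library, and the 6 summed to 5.26, 7.77 and 15.2 FPKM. Those 2 were COL1A1 and PDGFRB in parental cells and PDGFRB and LUM in both HepG2/metR libraries. Of 4 endothelial markers 0 reached 1 FPKM, PECAM1 being listed at 0 in both HepG2/metR libraries, and of 3 blood markers only CD68 did. In bulk RNA, fewer cells of a type and less RNA per cell cannot be told apart.

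Sequence was not used to choose the genes. The mature miR-200 microRNAs are shown because their seeds, bases 2 to 8 in capitals, fall into a pair of groups that differ at a single base, and because ZEB1 and ZEB2 hold many matches to them. The sequences are those of RefSeq (GRCh38.p14), written 5′ to 3′.
hsa-miR-200b-3p: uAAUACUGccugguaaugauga
hsa-miR-200c-3p: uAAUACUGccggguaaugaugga
hsa-miR-429: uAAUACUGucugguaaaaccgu
hsa-miR-200a-3p: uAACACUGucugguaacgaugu
hsa-miR-141-3p: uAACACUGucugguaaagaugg

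The letters that pair with these seeds, CAGTATT and CAGTGTT, were counted on the sense strand of the longest annotated 3′ UTR of each gene in GENCODE release 29 (GRCh38). ZEB1 held 9 matches in 2549 bases and ZEB2 held 9 in 5370 bases. Only 6 of 19132 genes (0.0314%) held 9 or more, and 28.3% held any. Among genes with a 3′ UTR at least as long, 0.137% had as many matches as ZEB1 and 0.371% as many as ZEB2. ESRP1 held 2 matches, SNAI2 and GRHL2 held 1 each, and CDH1, CDH2, EPCAM, SNAI1 and TWIST1 held 0. A match of letters is a description and not a shown binding site. A pair of matches from each ZEB gene, 1 for each seed group, is printed with the match in capitals. They lie in the 3′ UTR of ZEB1 at chr10:31527618-31527639 and chr10:31528031-31528052 (plus strand) and in that of ZEB2 at chr2:144389053-144389074 and chr2:144389237-144389258 (minus strand).
ZEB1, match to miR-200b-3p, miR-200c-3p and miR-429: attgttttatcttatCAGTATT
ZEB1, match to miR-200a-3p and miR-141-3p: caaaatcatcagaatCAGTGTT
ZEB2, match to miR-200b-3p, miR-200c-3p and miR-429: cgcactaccatacatCAGTATT
ZEB2, match to miR-200a-3p and miR-141-3p: tgcaaaaattttgtaCAGTGTT

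**Figure D1:**
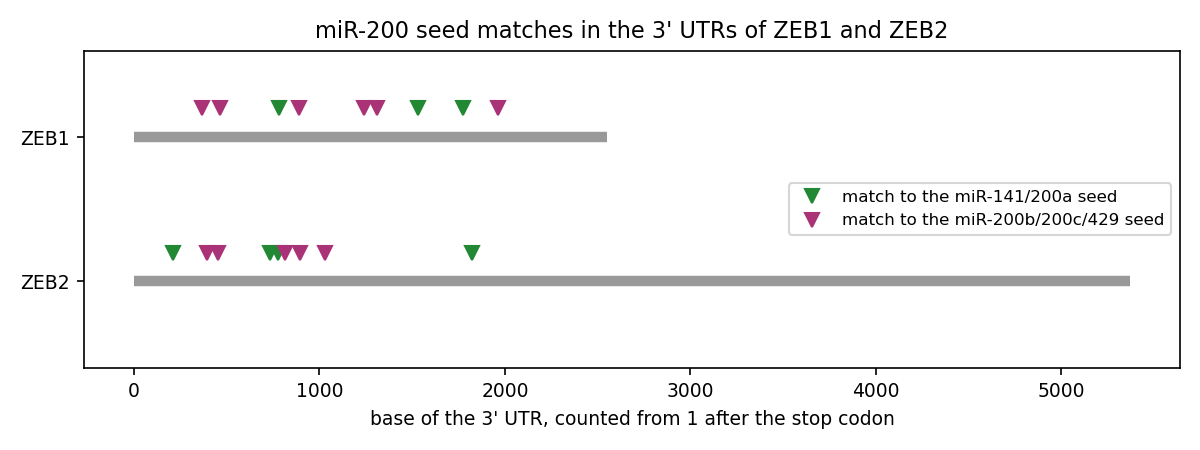
Positions of matches to the miR-200 seeds along the longest 3′ UTR of ZEB1 (2549 bases) and ZEB2 (5370 bases), in bases from the stop codon; colours mark the seed groups. The 9 matches of ZEB2 lie between bases 208 and 1825, in the part of its UTR nearer the stop codon, and the 9 of ZEB1 between bases 369 and 1964.

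MIR200A, MIR200B, MIR200C, MIR141, MIR429, MIR205 and the host transcript MIR205HG were listed at 0 in all 3 libraries, 7 of the 7 genes of that list. These rows count RNA-seq fragments on the microRNA genes, and mature microRNAs were not measured.

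RefSeq promoters, from 250 bases before to 50 bases from each start, were at hand for ZEB1 (7 starts), ZEB2 (1 start) and CDH2 (2 starts). They were searched for the E-box CAGGTG on both strands (CACCTG on the printed strand), the form that SNAI and ZEB factors are known to bind. It occurred in 20.6% of 35116 promoters. ZEB1 had 1 match at 1 start and 3 at another, a count reached by 0.635% of promoters, while its other starts, ZEB2 and CDH2 had none. The ZEB1 promoter with 3 matches (GRCh38.p14, chr10:31318966-31319265, plus strand) is printed with the matches in capitals, since it is the member promoter with the most of them. The matches begin at -242, -85 and 33 bases from the start, and the files do not separate the starts of ZEB1.
ZEB1 promoter: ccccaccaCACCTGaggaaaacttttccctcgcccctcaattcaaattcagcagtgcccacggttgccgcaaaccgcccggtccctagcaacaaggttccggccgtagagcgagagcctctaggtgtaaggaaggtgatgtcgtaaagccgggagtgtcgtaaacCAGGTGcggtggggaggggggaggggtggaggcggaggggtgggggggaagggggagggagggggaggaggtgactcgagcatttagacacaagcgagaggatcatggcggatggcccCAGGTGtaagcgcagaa

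Between parental HepG2 and HepG2/metR cells, CDH1, EPCAM and SNAI1 went from above 1 FPKM to under 0.1, SNAI2, ZEB2 and TWIST1 went from under 0.1 to above 3, ZEB1 was listed moderately higher and CDH2 at a similar level. Of the 7 genes kept, 3 were past 2-fold upward and 2 downward, as were 16.6% and 17.6% of the 12210 genes kept. The median log2 difference of the 7 genes was 0.71, against 0.02 over all genes kept. The mean over 3 libraries, of which 2 are HepG2/metR, kept SNAI2, ZEB2 and TWIST1 only through those 2. It kept CDH1 and EPCAM only through the parental library and dropped SNAI1 at -1.44. This count and median are therefore partly set by the filter. With no filter 3 of the 10 genes were higher and 3 lower, beside 8.31% and 9.60% of 25270 symbols.

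EPCAM, an epithelial adhesion protein of liver progenitors and carcinomas, was listed at 102, 0.0900 and 0.0661 FPKM. It was the highest of the 10 genes in parental cells, above 96.7% of all symbols, and its log2 difference of -6.56 in HepG2/metR cells was lower than that of all but 0.639% of the genes kept. CDH1 was listed at 5.92, 0.0365 and 0.0214 FPKM, a log2 difference of -2.74. Both epithelial adhesion genes were above 5 FPKM in the parental library and under 0.1 in the other 2.

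The epithelial regulators among the members were low in every library. GRHL2, a transcription factor that sustains CDH1 transcription, was listed at 0.00811, 0.0134 and 0 FPKM. ESRP1, which directs epithelial splice forms, was listed at 0.0490, 0.131 and 0.188 FPKM. Neither reached 1 FPKM in any library, parental cells included. ESRP2, the paralog of ESRP1, was listed at 14.6 FPKM in parental cells and at 0.159 and 0.147 in the HepG2/metR libraries.

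CDH2 was listed at 35.2, 33.4 and 36.1 FPKM. Its log2 difference in HepG2/metR cells was -0.08, and 0.09 with upper-quartile scaling, so its direction depended on the scaling. N-cadherin transcript was already 5.95 times that of E-cadherin in parental cells on the FPKM scale. No ratio is given for the HepG2/metR libraries, where CDH1 was under 0.1 FPKM.

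The SNAI repressors went in opposite directions. SNAI1, which encodes SNAIL, was listed at 1.89, 0.0680 and 0.0445 FPKM. SNAI2, which encodes SLUG, was listed at 0.0431, 6.48 and 12.6 FPKM. The share of SNAI2 in the summed FPKM of the pair was 2.23% in parental and 99.0% in HepG2/metR cells. The log2 difference was -1.44 for SNAI1, which was not kept, and 2.84 for SNAI2, higher than that of 96.3% of the genes kept.

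ZEB1 was expressed in all 3 libraries, at 5.30, 9.30 and 10.1 FPKM, and in HepG2/metR cells stood at 1.76 times its parental FPKM. Its log2 difference of 0.71 lay under the 2-fold threshold of 1. ZEB2 was listed at 0.0327, 5.27 and 7.72 FPKM, a log2 difference of 2.60, higher than that of 95.6% of the genes kept. ZEB2 made up 0.614% of the summed FPKM of ZEB1 and ZEB2 in parental cells and 36.2% in HepG2/metR cells. How the counting treated strand is not given in the sources used here, and the antisense gene ZEB1-AS1 was listed between 1.57 and 2.03 FPKM and ZEB2-AS1 at 0, 0 and 0.165 FPKM, each below its partner wherever the partner was above 1 FPKM.

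TWIST1, a basic helix-loop-helix factor, was listed at 0, 3.29 and 3.91 FPKM, a difference of 2.10 on the log2(FPKM + 1) scale. From the highest level down, the order was EPCAM, CDH2, CDH1, ZEB1 and SNAI1 in parental cells and CDH2, ZEB1, SNAI2, ZEB2 and TWIST1 in HepG2/metR cells, with the other genes under 1 FPKM. Without replicates it cannot be said which neighbours in that order differ beyond the spread of a condition.

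**Figure D2:**
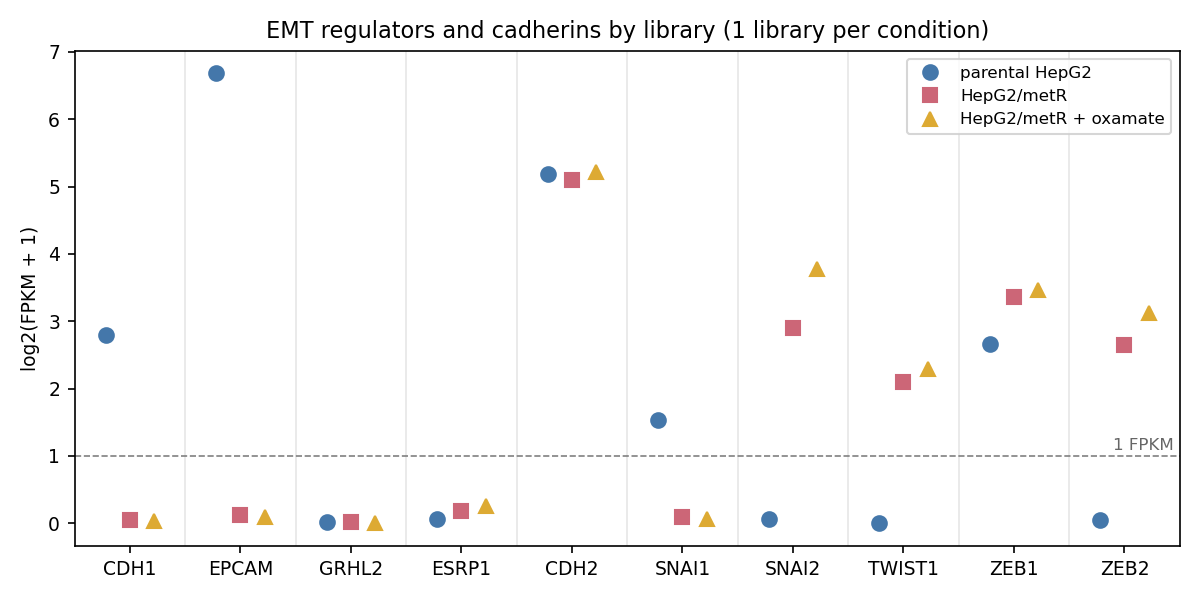
Level of each of the 10 genes on the log2(FPKM + 1) scale, with 1 point per library and the dashed line at 1 FPKM. CDH1, EPCAM and SNAI1 lie above the line only in parental cells, SNAI2, TWIST1 and ZEB2 only in the HepG2/metR libraries, and CDH2 and ZEB1 in all 3.

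With oxamate CDH1 and EPCAM stayed under 0.1 FPKM, ZEB1, ZEB2 and TWIST1 were listed above their untreated levels, and SNAI2 was listed higher still. Of the 7 genes kept, 1 (SNAI2) was at least 1.5-fold higher and 0 were at least 1.5-fold lower, where 4.30% and 3.82% of the genes kept were (525 higher and 466 lower, and 1191 higher and 192 lower once all libraries were brought to 1 total). SNAI2 went from 6.48 to 12.6 FPKM, a log2 difference of 0.86, higher than that of 99.0% of the genes kept. The stroma markers PDGFRB and LUM went from 3.66 and 3.25 to 7.26 and 6.69 FPKM in the same comparison, and their part in it was not tested. ZEB2 went from 5.27 to 7.72 FPKM, a log2 difference of 0.47 that was under the threshold of 0.58 as deposited and past it, at 0.63, once all libraries were brought to 1 total. That scaling moved the median of all genes to 0.17.

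The differences of ZEB1, TWIST1 and CDH2 with oxamate were 0.10, 0.20 and 0.11, each under the 1.5-fold threshold. CDH1, EPCAM and SNAI1 were under 0.1 FPKM with and without oxamate, so no fold is given for them. The comparisons share the HepG2/metR library, and an error in that library would enter both.

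**Figure D3:**
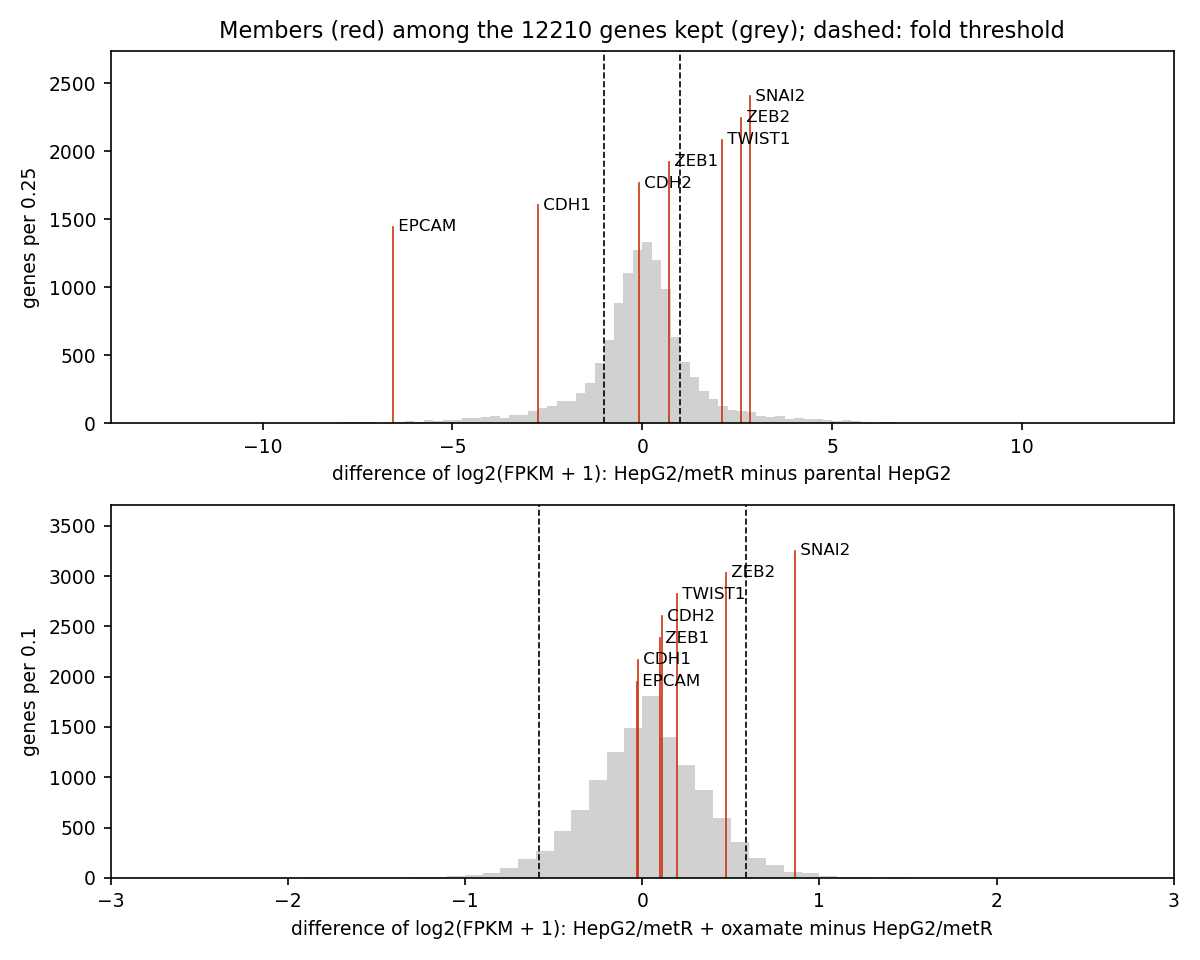
Histograms of the difference in log2(FPKM + 1) over the 12210 genes kept (grey), for HepG2/metR minus parental HepG2 above and for oxamate-treated minus untreated HepG2/metR below, with the 7 genes kept as red lines and the fold thresholds dashed. The lower axis ends at a difference of 3 in either direction and leaves out 34 genes, some on each side. EPCAM at -6.56 and CDH1 at -2.74 lie left and TWIST1, ZEB2 and SNAI2 lie right of the thresholds above, and SNAI2 at 0.86 is the only line past them below.

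Genes near the members in level and course were named by the distance of the 3 deposited values, for members that reached 10 FPKM. Among the nearest to EPCAM were CD7 and CPVL, at 101 and 99.2 FPKM in parental cells and at 0.160 FPKM or less in both HepG2/metR libraries. Among the nearest to SNAI2 were VGLL3 and SERTAD4-AS1, and VGLL3 was listed at 0.0319, 6.30 and 15.4 FPKM. FAM114A2 and STAG3L5P lay among the nearest to ZEB1, and ARL1, MCM8 and BCAR1 lay nearest to CDH2. The likeness rests on 3 values per gene and says nothing of shared control.

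Beside the E- and N-cadherin pair, other cadherins differed between the libraries. CDH13, which encodes T-cadherin, a cadherin held by a lipid anchor without a catenin-binding tail, was listed at 0, 56.7 and 82.8 FPKM. CDH4 (R-cadherin) was listed at 0, 10.0 and 11.8 FPKM, and CDH18, of the type II cadherins, at 0, 6.63 and 4.54. CDH24 was listed at 1.17, 4.36 and 4.23 FPKM. CDH15 and CDH16, named after their values were seen, went the other way, at 1.34 and 1.73 FPKM in parental cells and a listed 0 in both HepG2/metR libraries, with log2 differences of -1.23 and -1.45. Over all genes kept 16.6% were past 2-fold upward. Of the 20 other CDH genes examined only CDH4, CDH13, CDH18 and CDH24 were kept, each past 2-fold upward (median log2 difference 3.20). The mean over 3 libraries, of which 2 are HepG2/metR, keeps a gene that is high in those and drops CDH15 and CDH16, so this count is largely set by the filter.

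Over the 22 CDH genes examined, which leave out the desmosomal cadherins, the FPKM summed to 45.6, 111 and 140. CDH2 held 77.3% of the sum in parental and 30.0% in HepG2/metR cells, CDH1 held 13.0% and 0.0328%, and CDH13 held 0% and 50.9%. Among these 22 genes CDH2 was therefore the highest in parental cells and CDH13 in both HepG2/metR libraries. DSG2, a desmosomal cadherin gene outside them and named after its values were seen, was listed at 36.5 FPKM in parental cells. Of the 22 genes, 5 were listed at 0 in all 3 libraries and 9 stayed under 1 FPKM without being at 0 throughout. With oxamate 0 of the 4 genes kept passed 1.5-fold in either direction, where 4.30% of all genes kept were higher and 3.82% lower. CDH13 and CDH18 had the largest differences, of 0.54 and -0.46. Once all libraries were brought to 1 total, 1 of the 4 passed upward, beside 9.75% of all genes kept.

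**Figure D4:**
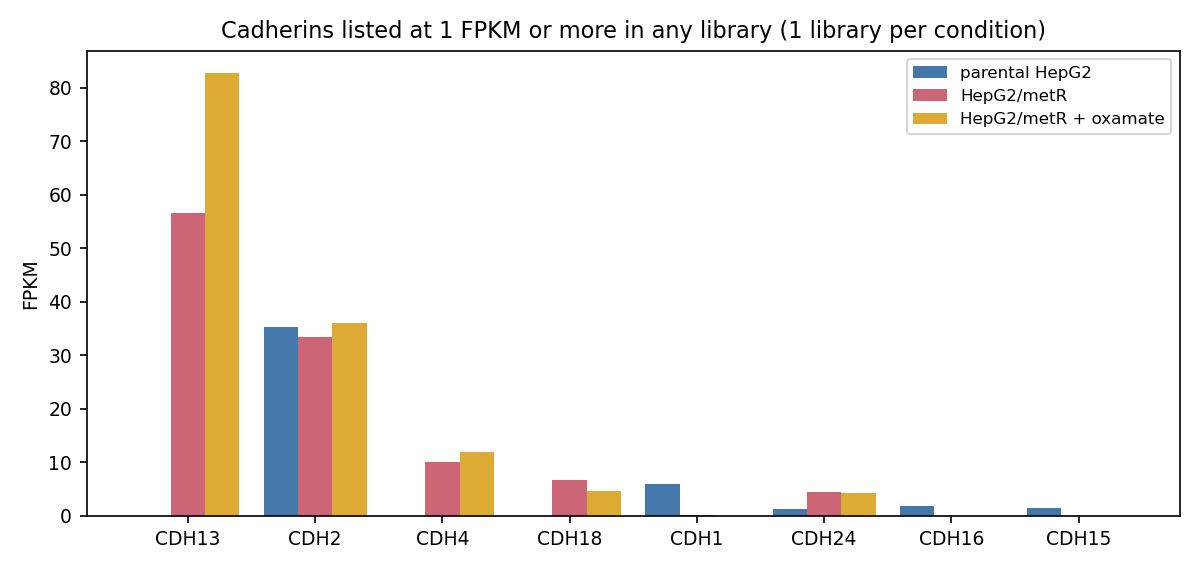
FPKM of the 8 genes, among the 22 CDH genes examined, listed at 1 FPKM or more in any library, with 1 bar per library. CDH2 stands between 33.4 and 36.1 FPKM in all 3 libraries, CDH13 at 0 in parental cells and at 56.7 and 82.8 FPKM in the HepG2/metR libraries, and CDH1 at 5.92 FPKM in parental cells only.

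Catenins, which tie cadherins to the cytoskeleton, differed less than CDH1. CTNNB1 (beta-catenin) was listed at 150, 114 and 112 FPKM, CTNNA1 (alpha-catenin) at 78.4, 160 and 156, and CTNND1 (p120-catenin, which stabilises cadherins at the membrane) at 55.0, 25.3 and 29.2. JUP (plakoglobin, shared with desmosomes) was listed at 20.0, 3.76 and 4.31 FPKM. Of the 9 genes kept of 12 found, 2 were at least 2-fold higher and 5 at least 2-fold lower in HepG2/metR cells (median -1.09). Over all genes kept, for this and the lists below, the shares were 16.6% and 17.6%. VCL (vinculin) had the largest positive difference, 1.89, and JUP, MLLT4 (afadin) and CTNNBIP1 the largest negative ones, -2.14, -2.09 and -1.80. With oxamate 0 of 9 passed 1.5-fold, with a median of -0.01, and CTNND1 and JUP differed most, by 0.20 and 0.16. Over all genes kept, for this and the lists below, 4.30% were higher and 3.82% lower with oxamate. A count of 0 in a list this short is near those shares.

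Of the 10 kept of 14 other epithelial adhesion genes found, 5 were past 2-fold downward in HepG2/metR cells, 1 was past it upward and 4 passed in neither direction (median -1.02). CEACAM1 went from 42.5 to 0.0681 FPKM and the desmosomal plaque gene DSP from 53.8 to 5.70. Among desmosomal cadherins DSC2 went from 11.7 to 2.37 FPKM, whereas DSC3 went from 0.103 to 7.86. With oxamate 0 of 10 passed 1.5-fold (median 0.11), DSC2 and DSC3 differing by 0.48 and 0.43.

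Among genes of apical and lateral polarity, many of which ZEB factors are known to hold down, 9 of the 13 kept of 17 found were past 2-fold downward in HepG2/metR cells and 1 was higher (median -2.18). MAL2, a protein of apical transport, went from 47.2 to 0.207 FPKM, LAD1 from 29.8 to 0.103, the polarity gene LLGL2 from 24.3 to 0.906, and CRB3, a member of the Crumbs complex, from 13.9 to a listed 0. With oxamate 0 of 13 passed 1.5-fold (median 0.04), with AP1M2 at -0.47 and PARD6B at 0.41.

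The next list joins epithelial transcription factors with splicing factors, of which MBNL1, RBFOX2 and QKI are not particular to epithelial cells. Of its 10 genes kept of 19 found, 6 were past 2-fold downward in HepG2/metR cells and 2 upward (median -1.77). Over all genes kept 17.6% and 16.6% were. Those upward were MBNL1 at 1.58 and RBFOX2 at 1.29, named after their values were seen. The pioneer factors of endoderm FOXA1, FOXA2 and FOXA3 went from 26.9, 13.4 and 17.5 FPKM to 0.712, 0.702 and 0.343. With oxamate 1 of 10 was higher and 0 lower (median 0.09), where 4.30% and 3.82% of all genes kept were. In a list this short 1 gene is near those shares. The gene was KLF5, at 5.74 and 10.2 FPKM, and FOXA1 differed by 0.20.

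The list of other EMT transcription factors also holds the ID genes. Of its 10 genes kept of 18 found, 1 was past 2-fold upward in HepG2/metR cells and 5 downward (median -1.09). Those downward were SOX4, SOX9 (named after its values were seen), ID1, ID2 and ID3, so the 5 are not all EMT inducers. The gene past 2-fold upward was PRRX2, named after its values were seen and listed at 0, 1.80 and 1.58 FPKM. It was kept only through the HepG2/metR libraries. FOXC2, also named afterwards, was listed at 0, 1.59 and 1.09 FPKM, differed by 1.37 and was not kept. The largest differences were in ID1, ID2 and ID3, inhibitors of basic helix-loop-helix factors, which went from 259, 143 and 65.3 FPKM to 15.4, 22.5 and 9.91, and in SOX4, which went from 19.4 to 1.22. With oxamate 0 of 10 passed 1.5-fold (median -0.06), ID1 and ID2 differing by -0.50 and -0.36.

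Genes of TGF-beta signaling, a main inducer of EMT, went in both directions. Of the 17 kept of 22 found, 4 were at least 2-fold higher and 6 at least 2-fold lower in HepG2/metR cells (median -0.30). Over all genes kept 16.6% were higher and 17.6% lower. The ligand gene TGFB2 was listed at 0.0791, 37.4 and 57.9 FPKM, whereas TGFBR3 (betaglycan, a co-receptor that presents this ligand) was listed at 33.9, 1.62 and 2.55. BMP4 was listed at 76.4, 1.65 and 3.02 FPKM and TGFBI, a secreted matrix protein induced by TGF-beta, at 155, 1.37 and 0.687. With oxamate 2 of 17 were higher, TGFB2 at 0.62 and BMP4 at 0.60, and 0 were lower (median 0.15). Over all genes kept 4.30% were higher and 3.82% lower with oxamate. These values of TGFB2 and BMP4 lie close to the threshold of 0.58, and the count depended on the scaling. With median-of-ratios size factors 1 of 17 was higher. Once all libraries were brought to 1 total, 4 of 18 were higher, beside 9.75% of all genes kept.

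Proteases and ubiquitin ligases of cadherin turnover showed no common direction. Of the 9 kept of 11 found, 2 were at least 2-fold higher (MMP9, from a listed 0 to 3.40 FPKM, and MMP14, from 7.59 to 35.7) and 2 lower (MMP3, from 4.56 to 0.168, and the gamma-secretase gene NCSTN, from 61.2 to 27.5), with a median of 0.25. Both counts are near the 16.6% higher and 17.6% lower of all genes kept. With oxamate 0 of 9 passed 1.5-fold (median 0.01), MMP3 differing by 0.49 and ADAM15 by -0.25.

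Among regulators of SNAI and ZEB protein turnover and their corepressors, 15 of the 18 found, all kept, stayed within 2-fold in HepG2/metR cells, 3 were higher and 0 lower (median 0.02). The 3 of 18 are close to the 16.6% of all genes kept that were higher. The highest was CTBP2, a corepressor that ZEB factors bind, at 0.467, 30.8 and 26.8 FPKM. PAK1 and SUZ12 differed by 1.33 and 1.13, and SIAH1 by -0.68. With oxamate 1 was higher (LATS2, at 0.74) and 1 lower (EZH2, the methyltransferase of the Polycomb complex, at -0.67), with a median of -0.00.

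Mesenchymal proteins divided. In HepG2/metR cells 8 of the 14 kept of 16 found were past 2-fold upward and 4 downward (median 2.51), beside 16.6% and 17.6% of all genes kept. Of those upward, CD44, THY1, ITGA5, WNT5A and WNT5B were under 1 FPKM in parental cells and kept only through the HepG2/metR libraries. This count and median are therefore partly set by the filter. ITGA5, WNT5A and WNT5B were named after their values were seen. CD44, a hyaluronan receptor, was listed at 0.152, 248 and 238 FPKM, the receptor kinase gene AXL at 3.22, 231 and 215, LOXL2 at 1.21, 118 and 102, and THY1 at 0.0374, 53.3 and 48.5. FN1 (fibronectin), in contrast, was listed at 1503, 45.7 and 93.7 FPKM and S100A4 at 38.9, 1.29 and 3.41. These were the 2 of 14 genes at least 1.5-fold higher with oxamate, at 1.02 and 0.94, and 0 were lower (median -0.08). Over all genes kept 4.30% were higher and 3.82% lower with oxamate. Once all libraries were brought to 1 total, 3 of 14 were higher (median 0.09), beside 9.75% of all genes kept.

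**Figure D5:**
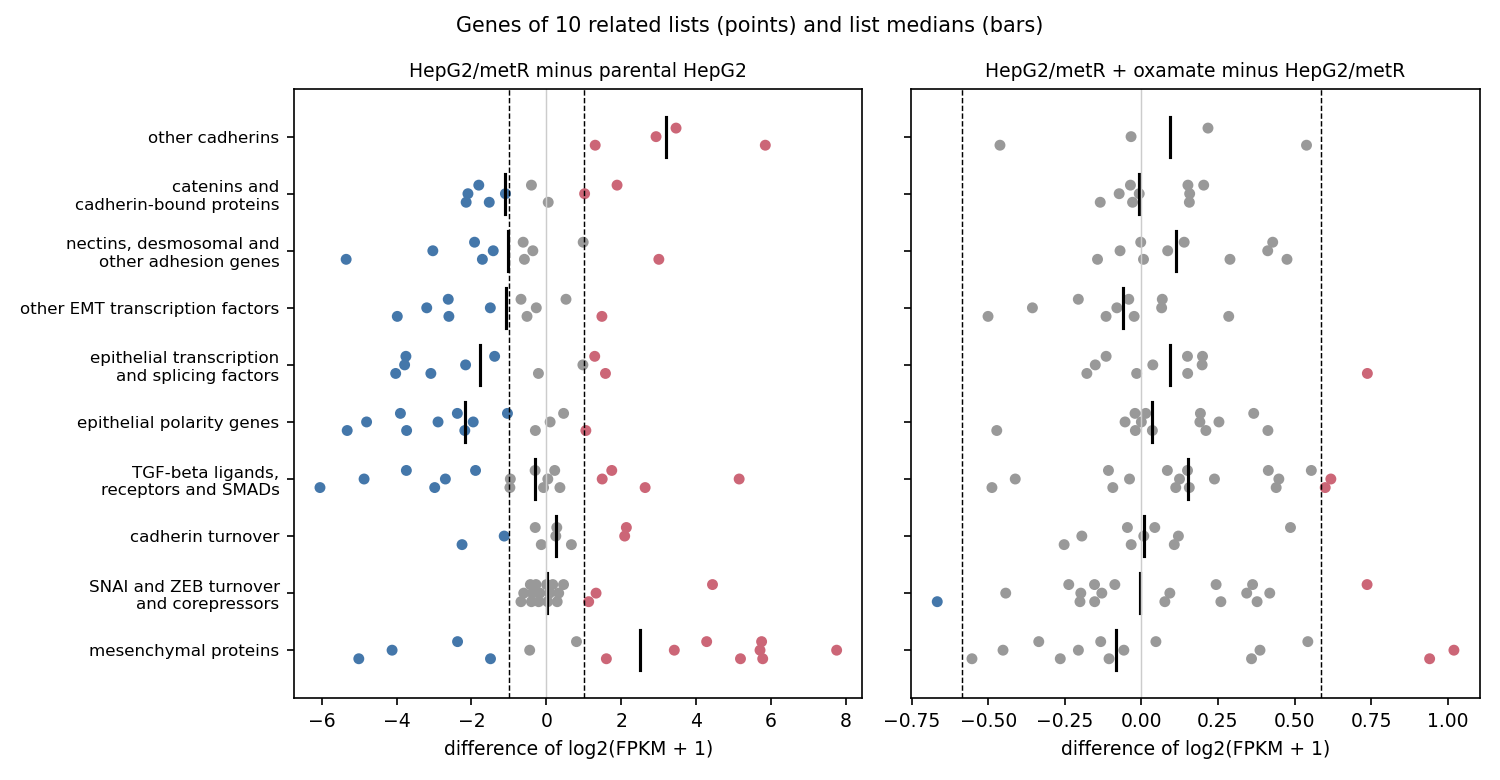
Difference in log2(FPKM + 1) of each gene kept (points) in 10 related lists, with list medians as black bars and fold thresholds dashed, for HepG2/metR minus parental HepG2 on the left and with oxamate on the right; red and blue mark genes past the threshold. On the left the medians run from -2.18 for polarity genes to 3.20 for the other cadherins, and on the right from -0.08 to 0.15.

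Across these lists 114 genes were kept, of which 28 were at least 2-fold higher and 42 at least 2-fold lower in HepG2/metR cells, beside 16.6% and 17.6% of all genes kept. In every list the filter more readily keeps a gene that is high in both HepG2/metR libraries than a gene high in parental cells alone. With no filter 30 of 174 genes were higher and 48 lower, beside 8.31% and 9.60% of 25270 symbols. With oxamate 6 of the 114 were at least 1.5-fold higher and 1 was at least 1.5-fold lower, beside 4.30% and 3.82% of all genes kept, so the higher count is near the background. Under the other scalings each list's median in HepG2/metR cells kept its sign. With oxamate the medians of the catenins, the cadherin turnover genes, the corepressors, the other EMT factors and the mesenchymal proteins changed sign between scalings.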

How the data were processed

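Total RNA of 3 conditions, 1 library each, was sequenced by the authors, and the submitters' processing notes name STAR 2.5.1b, FastQC 0.11.5, Cufflinks 2.2.1 and the hg19 build. The annotation and filters are not given in the sources used here. The deposited values are on a log2 scale and have the form of log2(FPKM + 1). The number of reads is unknown, so no counting interval is given, and since the sequence tables are GRCh38 no gene coordinates are printed.

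Deposited values were used without rescaling, a difference being that of 2 libraries. The RefSeq (GRCh38.p14) and GENCODE 29 tables gave sequences only. Symbols were matched exactly, and 28 symbols altered to dates were not matched by name. Thresholds of 2-fold and, with oxamate, 1.5-fold follow the study. The members and lists were chosen with earlier results of these data known. Named genes are all members, the list genes with the 4 largest differences in HepG2/metR cells and the 2 largest with oxamate, the main catenins, and the 3 nearest genes of members reaching 10 FPKM, of which some are not reported here. ESRP2, FOXA and ID genes fall under that rule. Relative depth was read from the commonest ratio between libraries among genes under 0.15 FPKM. The calling of higher genes was run on simulated data with large rises and little noise. That run did not cover low genes or the spread between libraries. Python 3.11, numpy 2.4.6, pandas 2.3.3 and matplotlib 3.10.9 were used. Alternatives were pseudocounts of 0.1 and 0, no filter or a mean of at least 5 FPKM, other scalings and the other fold threshold.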

Additional observations from a re-analysis of the deposited data

How the results depend on the processing

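In HepG2/metR against parental cells, the same 3 members were higher (ZEB2, SNAI2, TWIST1) and the same 2 lower (CDH1, EPCAM) with a pseudocount of 0.1 and under the 3 other scalings. Without a filter SNAI1 joined the lower genes, at 1.5-fold ZEB1 joined the higher ones, and with no pseudocount TWIST1, listed at 0 in parental cells, could not be computed. A mean of at least 5 FPKM kept only 4 members, of which 1 was higher and 1 lower, and 27 list genes were lower against 42. The size of the differences depended on the pseudocount: CDH1 gave -2.74, -5.46 with a pseudocount of 0.1 and -7.34 with none. With oxamate SNAI2 was at least 1.5-fold higher under every alternative but the 2-fold threshold, which left 0 members and, in the lists, 1 gene higher and 0 lower. An equal total for every library gave 2 members higher, and 12 list genes higher and 0 lower. A pseudocount of 0.1 gave 14 list genes higher and 2 lower, and none gave 15 and 3, with CDH1 as 1 member lower at levels under 0.1 FPKM. Over all genes kept in HepG2/metR against parental cells, 1249 were higher and 1428 lower at a mean of at least 5 FPKM, and 3262 and 3301 at 1.5-fold. With oxamate 271 were higher at a mean of at least 5 FPKM, 1018 with a pseudocount of 0.1, 1111 with none, and 66 higher and 64 lower at 2-fold. No member past the threshold changed direction. Upper-quartile scaling moved the median of all genes in HepG2/metR against parental cells to 0.17. The depth in reads being unknown, the precision of levels under 0.1 FPKM is unknown. No paired analysis was possible because each condition has 1 library.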
